A study of Homo sapiens with 18 samples.

Results

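Aminoacyl-tRNA synthetases are the enzymes that join each amino acid to its transfer RNA before translation. The 36 genes examined were taken by name from the gene column of the count tables and are 36 of the 23106 genes listed there. They comprise 20 genes of cytosolic enzymes and 16 nuclear genes of mitochondrial enzymes, the latter being those whose symbols end in 2. Polyadenylated RNA had been sequenced from 3 human cell lines in normoxia and in hypoxia, with 3 samples per group and 18 samples in all. HKC-8, labelled as kidney proximal tubule cells, was held in normoxia or in hypoxia for 16 h, with oxygen at 0.5% by the sample characteristics, whereas the titles read 0.1 for its hypoxic and 21 for its normoxic samples. HepG2, a line of hepatocellular cancer, was held in normoxia or in 0.5% oxygen for 16 h. RCC4+VHL, a kidney cancer line that lacks a working VHL tumour suppressor and had been stably transfected with wild-type VHL, was held in normoxia or, by the labels, in 1% oxygen for 24 h. No further allele or agent was named for any group. The study's text instead describes the same oxygen level and duration for the RNA of every line, and this conflict could not be settled from the sources used here. If the labels hold, line and regime cannot be told apart in any comparison that involves RCC4+VHL. Its transgene cannot be told apart from the line in either case. If the HKC-8 titles hold, line and oxygen level cannot be told apart between HKC-8 and HepG2 either. The labels do not say whether replicates were separate cultures, so p-values measure the spread between these samples only.

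Most amino acids have a separate enzyme for the cytosol and for the mitochondrion, each encoded by a nuclear gene, whereas GARS and KARS supply both compartments from alternative products of the same gene. A group of 8 cytosolic enzymes is held, with the scaffold proteins AIMP1, AIMP2 and EEF1E1, in a multisynthetase complex. Many cytosolic synthetase genes belong to the amino acid response, in which stress kinases raise translation of the transcription factor ATF4 and ATF4 with its partners binds a composite C/EBP-ATF site in target promoters. Mitochondrial enzymes serve the small set of respiratory chain proteins that are translated inside the organelle.

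Total counts were between 40915980 and 97984260 per sample, with all HKC-8 samples above those of the other lines. Hypoxia was evident in each line. VEGFA, the vascular growth factor, rose on the log2 scale by 1.72 ± 0.10 (± standard error) in HKC-8, by 0.87 ± 0.05 in RCC4+VHL and by 1.38 ± 0.07 in HepG2, and every tested gene of a list of 10 known hypoxia-inducible genes rose (10 of 10, 8 of 8 and 10 of 10). CA9, a carbonic anhydrase that marks hypoxia, rose by 4.92 in HKC-8 and by 8.45 in HepG2 on the log2 scale and was too low to test in RCC4+VHL, with 3 to 6 counts per hypoxic sample and 0 in normoxia. CPM scale counts to the same library total, here after TMM normalization (trimmed mean of M values) within each line. In normoxic samples the 8 liver markers summed to 35200 CPM in HepG2, 0.337 in HKC-8 and 10.4 in RCC4+VHL. The 8 kidney tubule markers did not set HKC-8 above the liver line, with sums of 176 CPM in normoxic HKC-8, 560 in RCC4+VHL and 300 in HepG2. In HKC-8 that sum was nearly all PAX8 (170 CPM, against 130 in RCC4+VHL and 9.23 in HepG2), and the proximal tubule genes LRP2, CUBN, AQP1 and GGT1 were at 0 to 0.249 CPM. In HepG2 the sum was mostly ANPEP, at 258 CPM. The 4 leucocyte markers summed to at most 2.83 CPM in any sample.

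To set the genes side by side, normoxic levels were expressed as RPKM, the CPM divided by the exonic length in kilobases. For RPKM, the CPM were scaled by TMM over all 18 samples. The cytosolic enzymes had a median of 99 RPKM in HKC-8, 74 in RCC4+VHL and 68 in HepG2, and the mitochondrial ones 13.0, 16.1 and 15.3 RPKM. KARS, the lysyl enzyme, was highest in RCC4+VHL (180 ± 4.46 RPKM, SD, n = 3) and in HepG2 (169 ± 6.32). In HKC-8, TARS, the threonyl enzyme, was highest at 276 ± 6.05 RPKM, followed by NARS at 203 ± 4.68 and KARS at 183 ± 15.7, the last pair lying within their spread of each other. Of the mitochondrial genes, IARS2 was highest in all 3 lines, at 68.1 ± 1.24, 73.6 ± 1.85 and 62.5 ± 4.13 RPKM.

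**Figure D1:**
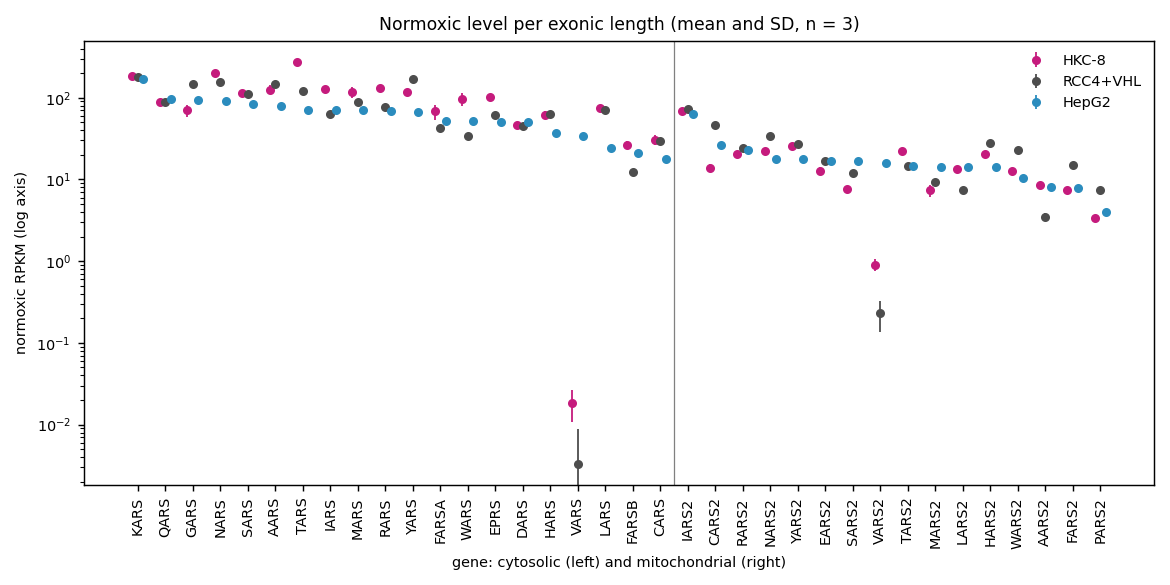
Normoxic level of each synthetase gene in RPKM (log axis; points are means and bars SDs of 3 samples), cytosolic genes left of the vertical line and mitochondrial genes right of it. Most cytosolic genes lie above most mitochondrial ones, IARS2 stands among the cytosolic levels, and VARS and VARS2 fall far below their HepG2 levels in HKC-8 and RCC4+VHL.

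Normoxic levels differed between lines for most members, as they did for most genes. By edgeR's quasi-likelihood test at an adjusted p under 0.05, 27 of 36 members differed between RCC4+VHL and HKC-8 (80.8% of all genes tested), 30 between HepG2 and HKC-8 (83% of all genes) and 30 between HepG2 and RCC4+VHL (83.3% of all genes). TARS was lower in HepG2 than in HKC-8 by a log2 difference of -1.92 ± 0.07 (adjusted p = 9.42e-12), and LARS, the leucyl enzyme, by -1.59 ± 0.07 (adjusted p = 7.12e-11). CARS2, the mitochondrial cysteinyl enzyme, was higher in RCC4+VHL than in HKC-8 by 1.75 ± 0.08 (adjusted p = 1.13e-10). KARS differed by no more than 0.09 in size between any 2 lines, with adjusted p-values of 0.277 to 0.794.

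Both valyl genes enter these counts but were set aside as contrasts between lines. VARS, the cytosolic enzyme, had 4506 to 6376 counts in each HepG2 sample but 1 to 15 in HKC-8 and 0 to 2 in RCC4+VHL, and did not pass the low-count filter in either kidney line. VARS2, its mitochondrial counterpart, had 2282 to 2857 counts in HepG2, 184 to 417 in HKC-8 and 21 to 93 in RCC4+VHL. The genes lie less than 1 Mb apart on chromosome 6, VARS at chr6:31745295-31763529 on the reverse strand and VARS2 at chr6:30881982-30894236 on the forward strand (GRCh37), and many of their neighbours were low in the same lines. Between 29000000 and 33000000 on chromosome 6, an interval chosen after the values were seen, 25 of the 36 genes with at least 10 CPM in normoxic HepG2 were at least 10-fold lower in both kidney lines (69.4%), against 24 of 384 (6.25%) on the rest of the chromosome. The median ratio to HepG2 in the interval was 0.0227 in HKC-8 and 0.00173 in RCC4+VHL, against 0.817 and 0.715 outside it. CSNK2B, a subunit of casein kinase 2 used by all cells, was at 134 CPM in HepG2, 0.342 in HKC-8 and 0.055 in RCC4+VHL, and the chloride channel gene CLIC1 at 237, 0 and 0 CPM. These CPM were scaled by total count alone, without TMM. Counting kept uniquely mapped fragments only, and its part in these values was not tested.

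**Figure D2:**
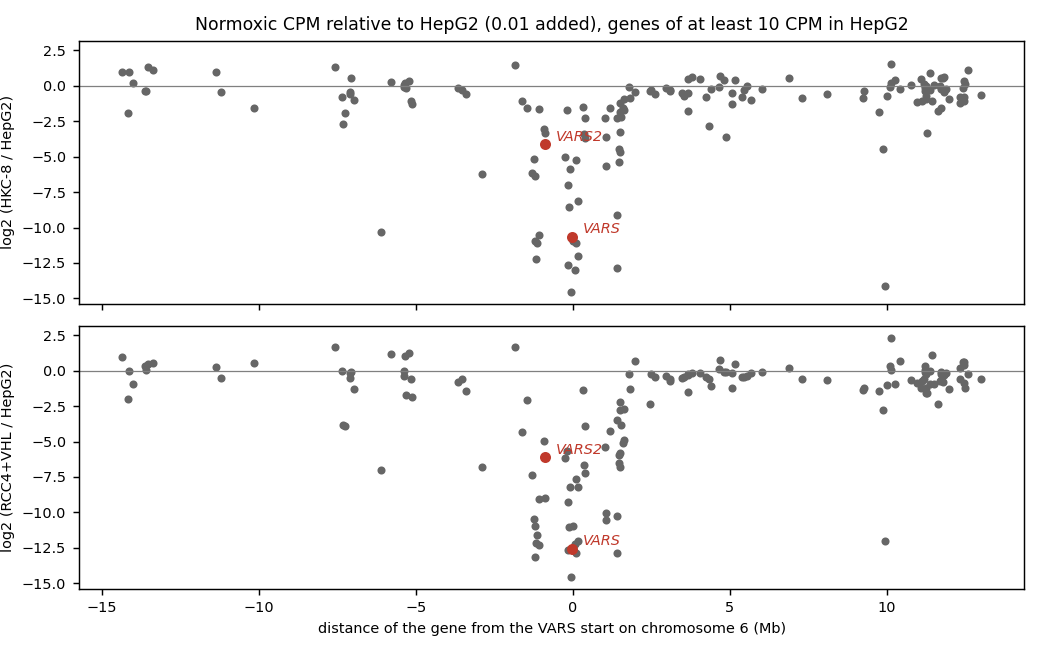
Log2 ratio of normoxic CPM in HKC-8 (top) and RCC4+VHL (bottom) to HepG2, with 0.01 CPM added to each, for chromosome 6 genes of at least 10 CPM in HepG2, against their distance from the VARS start in Mb. The 2 valyl genes, in red, sit among neighbours that are also far below the HepG2 level.

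The response to hypoxia was then compared within each line. A log2 fold change is given as hypoxia minus normoxia with its standard error, CPM are normalized by TMM (trimmed mean of M values) within the line, and a gene is said to have risen or fallen where its edgeR adjusted p was under 0.05. These are shares of the polyadenylated RNA, so a change in all RNA per cell would not be seen. Where samples are said not to overlap, this describes the values and adds no support beyond the call. Every member called had samples without overlap, except RARS2 in RCC4+VHL, and the share over all genes was not counted.

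In HKC-8, cytosolic and mitochondrial synthetases moved apart, and 18 of the 35 members tested were called (20.4% of all genes were). Of 19 cytosolic genes tested, 7 rose (11.2% of all genes rose) and 3 fell (9.12% of all genes fell), with a median log2 fold change of 0.26, and of 16 mitochondrial genes 0 rose and 8 fell, with a median of -0.29, while the median over all genes was 0.00. By DESeq2, and at an unadjusted p under 0.05, 0 mitochondrial genes rose as well. The labels do not say that replicate numbers pair samples, and these tests were unpaired. Same-numbered samples deviated together for numbers 2 and 3 in this line (correlations of 0.453 and 0.447) and little for number 1 (0.109). With the number as a block, as an alternative, 12 cytosolic genes rose and 5 fell, and 1 mitochondrial gene rose and 10 fell. The shares of all genes that rose and fell went up to 21% and 21.6% in that fit. The summed cytosolic level went from 6070 ± 219 to 7050 ± 472 CPM and the summed mitochondrial level from 820 ± 23.2 to 715 ± 22.9 CPM (SD, n = 3), without overlap of the samples.

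Glycyl and cysteinyl enzymes showed the highest rises. GARS, which charges glycine in both compartments, was at 149, 172 and 207 CPM in the normoxic and 292, 297 and 356 CPM in the hypoxic HKC-8 samples, a log2 fold change of 0.84 ± 0.13 (1.79-fold, adjusted p = 0.00349). CARS, for cysteine, was at 77.7, 82.3 and 99.5 CPM in normoxia and 142, 141 and 158 CPM in hypoxia (0.76 ± 0.10, adjusted p = 0.0019). WARS, for tryptophan, went from 227, 245 and 314 CPM to 364, 374 and 448 CPM (0.59 ± 0.13, adjusted p = 0.0156). In all 3 genes each hypoxic sample lay above each normoxic one, and normoxic sample 3 was the highest of its group.

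Alanyl and seryl enzymes rose less. AARS was at 398, 432 and 506 CPM in normoxia and 633, 590 and 666 CPM in hypoxia (0.50 ± 0.10, adjusted p = 0.0111), and SARS at 200, 223 and 242 CPM and 279, 279 and 332 CPM (0.42 ± 0.10, adjusted p = 0.0214). IARS, the isoleucyl enzyme of the complex, rose by 0.30 ± 0.09 (adjusted p = 0.0398) and DARS, the aspartyl enzyme, by 0.36 ± 0.08 (adjusted p = 0.016), again without overlap. EPRS, MARS, NARS, TARS and YARS had log2 fold changes of 0.27, 0.33, 0.26, 0.23 and 0.24 and missed the threshold (adjusted p = 0.0637, 0.0824, 0.0505, 0.0581 and 0.121), and each passed it with the replicate block (adjusted p = 0.00367, 0.000973, 0.00435, 0.00718 and 0.00523). Samples overlapped in MARS (287, 333 and 387 CPM in normoxia, 378, 427 and 462 CPM in hypoxia) and in YARS (265, 296 and 315, then 310, 344 and 377 CPM).

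Among the cytosolic genes 3 fell. RARS, the arginyl enzyme of the complex, was at 302, 295 and 255 CPM in normoxia and 183, 191 and 179 CPM in hypoxia (-0.62 ± 0.09, adjusted p = 0.00201). FARSB, the beta subunit of the phenylalanyl enzyme, went from 197, 196 and 158 to 113, 130 and 128 CPM (-0.57 ± 0.10, adjusted p = 0.00669), and KARS from 382, 403 and 338 to 275, 308 and 273 CPM (-0.39 ± 0.09, adjusted p = 0.0185). The catalytic alpha subunit FARSA was at -0.53 ± 0.18 with overlapping samples (adjusted p = 0.0655, and 0.000616 with the block), and HARS at -0.36 ± 0.12 (adjusted p = 0.0623, and 0.000833 with the block).

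Genes on the amino acid response list and most other cytosolic genes differed in sign. The list was drawn up with results of these samples known, so this split is not independent evidence. The 12 cytosolic synthetases on that list, which are AARS, CARS, EPRS, GARS, IARS, LARS, MARS, NARS, SARS, TARS, WARS and YARS, all had positive fold changes in HKC-8, between 0.18 and 0.84 with a median of 0.32, and 6 of them rose. Of the 7 other cytosolic genes tested, 1 rose and 3 fell, with a median of -0.39. With the replicate block 11 of the 12 rose. The complex was divided, with DARS and IARS higher, KARS and RARS lower, and EPRS, LARS, MARS and QARS between -0.14 and 0.33 without a call. The counts changed when single libraries were left out, as did those over all genes. The number of cytosolic genes that rose was 2 without normoxic sample 1, 4 without normoxic sample 2, 3 without hypoxic sample 1 or 3, and 7 without either of the other samples, and cytosolic genes that fell numbered 2 to 5, with 5 without normoxic sample 3 or hypoxic sample 2. The share of all genes that rose was 5% without normoxic sample 1, 6.8% without normoxic sample 2, 5.49% and 7.59% without hypoxic samples 1 and 3, and 13.1% and 11.5% without normoxic sample 3 and hypoxic sample 2. GARS, CARS, RARS, FARSB and the mitochondrial NARS2 kept their calls under all 12 alternatives.

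Promoter sequences that hold the core of the C/EBP-ATF site are shown as a description beside the response list named above. RefSeq promoters, from 250 bases before to 50 after the start, were at hand for 30 of the 36 members and matched GRCh37 exactly. The core TGATGNAA, searched on both strands, occurred in 5 of 16 cytosolic promoters (31.2%), in 1 of 14 mitochondrial promoters (7.14%) and in 3.62% of 35116 promoters of all genes. All 5 cytosolic promoters belonged to the amino acid response list (5 of 10), and 0 of the 6 others held the core. This split is no test of the site. The list names genes of the response that acts through it, and was drawn up with results of these samples known. The matches are given below on the gene's strand, with the core or its reverse complement in capitals. They lie at chr16:70323578-70323607 (AARS), chr7:30634450-30634479 (GARS), chr9:95055974-95056003 (IARS), chr12:57881836-57881865 (MARS), chr18:55289036-55289065 (NARS) and chr12:32909010-32909039 (YARS2).
AARS: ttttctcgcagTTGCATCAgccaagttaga
GARS: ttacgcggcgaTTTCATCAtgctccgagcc
IARS: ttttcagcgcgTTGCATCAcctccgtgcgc
MARS: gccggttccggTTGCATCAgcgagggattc
NARS: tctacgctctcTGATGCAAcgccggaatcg
YARS2: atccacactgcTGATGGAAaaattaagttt
The match began 33, 13 and 4 bases before the start in GARS, IARS and MARS, 15 bases after it in NARS, and 187 and 197 bases before it in AARS and YARS2. Of the 6 list genes that rose in HKC-8, AARS, GARS and IARS held the core. CARS, SARS and WARS had no match in this window, while MARS and NARS held the core and missed the threshold. A single RefSeq start was searched per member. The windows of CARS (chr11:3062165-3062464) and WARS (chr14:100841635-100841934) lie inside gene spans that begin, on the reverse strand, at 3078843 and 100843142. Those of GARS, MARS and NARS lie inside their spans too. So do those of FARSA, KARS and QARS, which are among the 6 others, and of CARS2, EARS2, FARS2 and NARS2. Other starts were not searched. The core of the hypoxia response element, ACGTG or GCGTG on either strand, was found in 81.2% of cytosolic and 92.9% of mitochondrial promoters and in 48.4% of all promoters. A match is a description of the letters and not of binding.

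Mitochondrial genes fell by modest amounts in HKC-8. FARS2, the phenylalanyl enzyme, was at 11.9, 12.4 and 13.9 CPM in normoxia and 7.91, 9.53 and 8.16 CPM in hypoxia (-0.57 ± 0.13, adjusted p = 0.0145). NARS2, for asparagine, went from 59.7, 58.3 and 53.2 to 41.4, 41.8 and 42.8 CPM (-0.44 ± 0.08, adjusted p = 0.0063), and LARS2, for leucine, from 62.5, 72.4 and 62.1 to 46.7, 54.2 and 45.2 CPM (-0.43 ± 0.10, adjusted p = 0.0175). No sample of one group reached the other in these 3 genes or in the 5 others that fell, EARS2, HARS2, TARS2, WARS2 and YARS2, whose log2 fold changes lay between -0.41 and -0.29. The remaining 8 were between -0.31 and 0.20, of which MARS2 and AARS2 fell and CARS2 rose with the replicate block (adjusted p = 0.00835, 0.0346 and 0.0381). Without hypoxic sample 1 the number of mitochondrial genes that fell was 1, without normoxic sample 1 or 2 it was 2, and without hypoxic sample 3 it was 4. Over all genes the share that fell was 2.5%, 2.37%, 3.8% and 4.94% in these fits, in the order hypoxic sample 1, normoxic samples 1 and 2 and hypoxic sample 3.

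**Figure D3:**
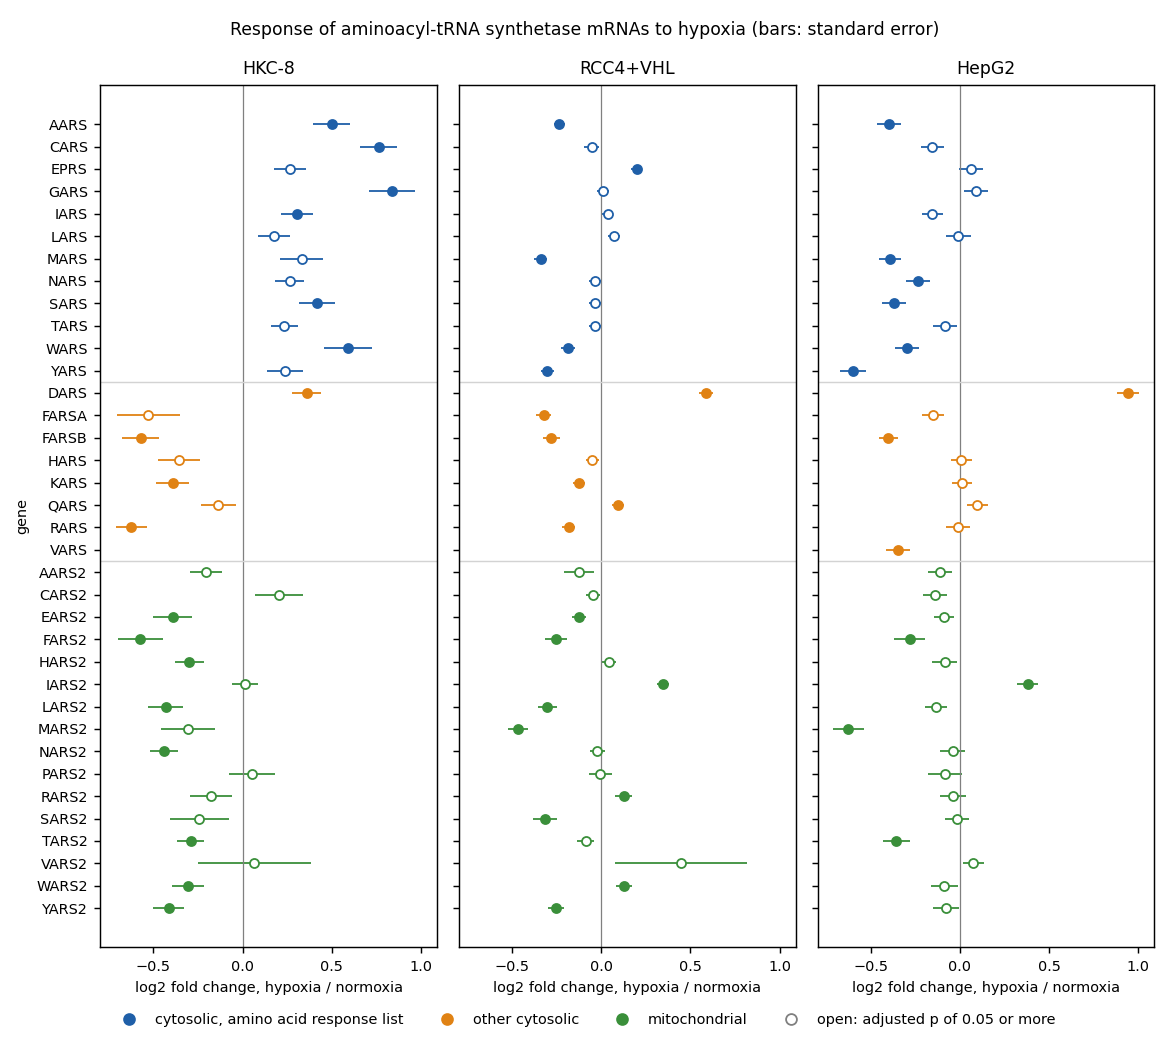
Log2 fold change of each gene in each line, with standard errors; filled points have an edgeR adjusted p under 0.05. In HKC-8 the 12 cytosolic genes of the amino acid response list (blue) all lie right of 0 and most mitochondrial genes (green) left of it, whereas in RCC4+VHL and HepG2 the blue points lie on both sides and, of the filled points, only DARS and IARS2 stand far to the right.

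In RCC4+VHL the compartments had like medians, and 20 of 35 members were called (50.1% of all genes were). Of 19 cytosolic genes tested 3 rose (25.9% of all genes rose) and 8 fell (24.2% of all genes fell), with a median of -0.05, and of 16 mitochondrial genes 3 rose and 6 fell, with a median of -0.07, beside a median of 0.00 over all genes. Replicates were closer here, so that smaller changes passed: standard errors of the tested cytosolic genes were 0.03 to 0.05, against 0.08 to 0.18 in HKC-8. DARS was at 139, 132 and 144 CPM in normoxia and 209, 216 and 200 CPM in hypoxia (0.59 ± 0.04, 1.5-fold, adjusted p = 1.61e-11). EPRS, the fused glutamyl and prolyl enzyme, rose by 0.20 ± 0.03 and QARS, for glutamine, by 0.09 ± 0.03 (adjusted p = 1.59e-05 and 0.0275). These 3 are members of the complex.

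In RCC4+VHL 8 cytosolic genes fell, of which FARSB, KARS and RARS fell in HKC-8 too. MARS, the methionyl enzyme, was at 242, 252 and 236 CPM in normoxia and 187, 203 and 187 CPM in hypoxia (-0.34 ± 0.04, adjusted p = 1.12e-07), FARSA at 74.4, 77 and 76 and 60.2, 59.8 and 61.9 CPM (-0.32 ± 0.04, adjusted p = 8.63e-07), and YARS, for tyrosine, at 397, 406 and 403 and 322, 347 and 309 CPM (-0.30 ± 0.04, adjusted p = 4.57e-07). FARSB fell by 0.28 ± 0.05 (adjusted p = 4.39e-05), with 83.6, 82.2 and 83.5 CPM in normoxia and 67.6, 74.3 and 63.3 CPM in hypoxia. AARS (501, 505 and 488 against 416, 437 and 416 CPM) and WARS (86.3, 86.8 and 88.6 against 77.1, 76.4 and 76.8 CPM), which rose in HKC-8, also fell, by 0.23 and 0.18 on the log2 scale (adjusted p = 2.41e-06 and 0.000407), as did RARS and KARS by 0.18 and 0.12. GARS and CARS stayed within their spread at 0.01 ± 0.03 and -0.05 ± 0.04. All hypoxic samples lay below all normoxic ones in each of the 8 genes that fell.

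Mitochondrial genes went both ways in RCC4+VHL. MARS2, for methionine, was at 28.1, 27 and 28.5 CPM in normoxia and 19.9, 20.3 and 20.2 CPM in hypoxia (-0.47 ± 0.06, adjusted p = 5.02e-07), and SARS2, for serine, at 21.3, 23.4 and 23.2 and 18.4, 19.1 and 17.1 CPM (-0.32 ± 0.07, adjusted p = 0.000341). IARS2, for isoleucine, was at 253, 247 and 265 CPM in normoxia and 317, 334 and 323 CPM in hypoxia, a rise of 0.35 ± 0.04 (adjusted p = 2.14e-08). Besides these, LARS2, YARS2, FARS2 and EARS2 fell by 0.30, 0.25, 0.25 and 0.13 on the log2 scale, and WARS2 and RARS2 rose by 0.13 and 0.12. The samples of RARS2 overlapped. Without normoxic sample 1, or without hypoxic sample 2 or 3, 1 mitochondrial gene rose, while 23%, 23.6% and 23.3% of all genes did.

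HepG2 showed falls in cytosolic genes and a rise of DARS to nearly double, and 13 of 36 members were called (39.1% of all genes were). Of 20 cytosolic genes 1 rose (19.9% of all genes rose) and 8 fell (19.2% of all genes fell), with a median of -0.15, and of 16 mitochondrial genes 1 rose and 3 fell, with a median of -0.09, beside 0.00 over all genes. DARS was at 152, 147 and 159 CPM in normoxia and 306, 300 and 274 CPM in hypoxia, which is 1.92-fold (0.94 ± 0.06, adjusted p = 8.81e-08). YARS was at 159, 154 and 175 and 104, 100 and 117 CPM (-0.60 ± 0.07, adjusted p = 2.86e-05), FARSB at 141, 141 and 135 and 106, 106 and 103 CPM (-0.40 ± 0.05, adjusted p = 8.22e-05). AARS went from 259, 251 and 284 to 199, 190 and 214 CPM (-0.40 ± 0.07, adjusted p = 0.000455), and MARS from 188, 189 and 202 to 141, 145 and 157 CPM (-0.39 ± 0.06, adjusted p = 0.000267). The samples of these 5 genes did not overlap.

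The other falls in HepG2 were SARS (148, 156 and 165 against 127, 113 and 124 CPM, -0.37 ± 0.07, adjusted p = 0.000652), WARS (128, 129 and 142 against 102, 109 and 114 CPM, -0.30 ± 0.06, adjusted p = 0.00282), NARS at -0.24 ± 0.07 and VARS at -0.35 ± 0.07. Of the 8 genes that fell, 6 are on the amino acid response list. Of the 12 on that list 0 rose in this line by edgeR, by DESeq2 or at an unadjusted p under 0.05. GARS (216, 213 and 240 CPM in normoxia, 247, 223 and 243 CPM in hypoxia) and CARS (46, 48.7 and 49.9, then 45.5, 41.1 and 43.4 CPM) did not pass the test, with log2 fold changes of 0.09 ± 0.07 and -0.15 ± 0.07. RARS, which fell in HKC-8, was at 141, 132 and 155 CPM in normoxia and 139, 148 and 137 CPM in hypoxia (-0.01 ± 0.07).

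Of the mitochondrial genes in HepG2, MARS2 went from 40.8, 39.9 and 46.6 to 24.6, 28.2 and 29.8 CPM (-0.62 ± 0.09, adjusted p = 8.97e-05), TARS2, for threonine, from 37.9, 38.3 and 42.1 to 29.3, 33.2 and 29.7 CPM (-0.36 ± 0.08, adjusted p = 0.00221) and FARS2 from 13.2, 13.5 and 12.6 to 11, 10.8 and 10.6 CPM (-0.28 ± 0.09, adjusted p = 0.0209). IARS2 rose from 214, 206 and 231 to 281, 283 and 282 CPM (0.38 ± 0.06, adjusted p = 0.000249), without overlap. The summed mitochondrial level was 843 ± 20.1 CPM in normoxia and 858 ± 12.3 in hypoxia, within the spread, IARS2 being the most abundant of them.

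**Figure D4:**
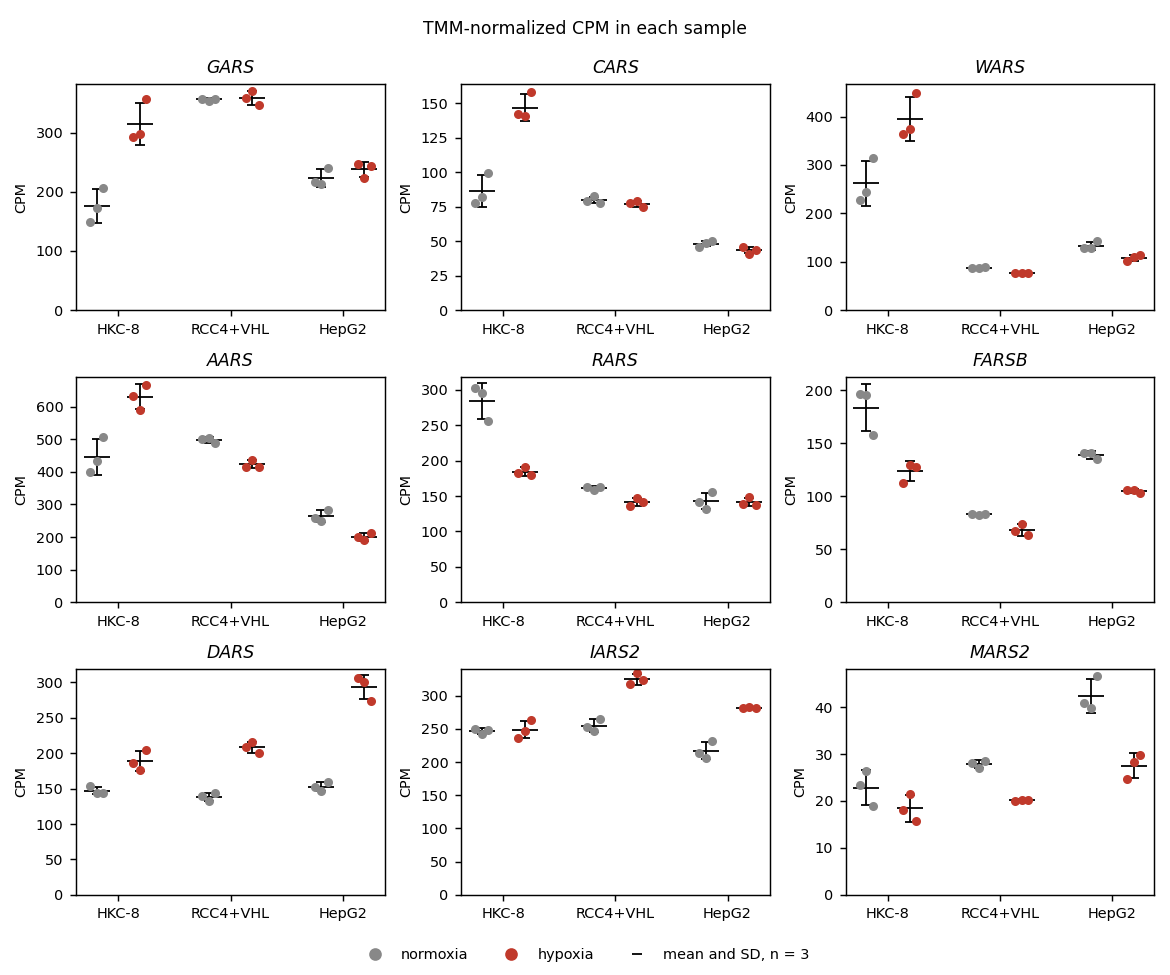
TMM-normalized CPM of 9 genes in every sample (grey normoxia, red hypoxia), with the mean and SD of 3 samples; each panel starts at 0. Hypoxic HKC-8 samples stand above normoxic ones for GARS, CARS, WARS and AARS and below them for RARS, DARS is higher in hypoxia and FARSB lower in all 3 lines, and IARS2 is higher in RCC4+VHL and HepG2.

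Of the 35 members tested in every line, 12 had a negative and 5 a positive log2 fold change in all 3, and 3 were called in the same direction in all 3. The shares of all genes with these patterns, or with the opposite and missing calls given below, were not counted. Some of these signs changed in a line when a sample was left out. This held for GARS, IARS2 and VARS2 among the positive members, and for RARS, NARS2 and SARS2 among the negative ones. DARS, at chr2:136663451-136743670 on the reverse strand, was the member that rose in all 3 lines. FARSB, at chr2:223431618-223520811 on the same strand, and FARS2 were the members that fell in all 3. FARSB kept its call in every line under all 12 alternatives. DARS kept its HKC-8 call under 8 of 12 (edgeR adjusted p up to 0.061). FARS2 kept its call under 11 of 12 in HKC-8 and 7 of 12 in HepG2 (up to 0.0713 and 0.0614). IARS2 rose in RCC4+VHL and HepG2 and was at 0.01 ± 0.07 in HKC-8. In all, 7 members were called in no line. Opposite calls were found for AARS and WARS, which rose in HKC-8 and fell in the other lines, for SARS, which rose in HKC-8 and fell in HepG2, and for WARS2, which fell in HKC-8 (37.2, 38.6 and 33 against 28.8, 29.4 and 29.8 CPM, -0.31 ± 0.09, adjusted p = 0.0418) and rose in RCC4+VHL (60.1, 62 and 63.3 against 64.8, 68.7 and 68.8 CPM, 0.13 ± 0.04, adjusted p = 0.0189).

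The difference in response was tested itself, as an interaction of line and oxygen. HKC-8 and HepG2 share the regime of the sample characteristics, though the HKC-8 titles read 0.1 for oxygen. With the replicate block, the response of 22 of 36 members differed between these lines (20.1% of all genes). In the main, unpaired test the response of 14 differed (9.3% of all genes), 12 of them cytosolic. It was higher in HKC-8 for 9 cytosolic genes (4.28% of all genes), all on the amino acid response list, with CARS at 0.91 ± 0.13 (adjusted p = 0.000322), AARS at 0.90 ± 0.13 (adjusted p = 0.000466), WARS at 0.89 (adjusted p = 0.00234), YARS at 0.83 (adjusted p = 0.000902), SARS at 0.78 (adjusted p = 0.00105), GARS at 0.74 (adjusted p = 0.00666) and MARS at 0.72 (adjusted p = 0.00479), then NARS and IARS at 0.50 and 0.46. It was lower in HKC-8 (5.02% of all genes) for RARS (-0.61, adjusted p = 0.00326), DARS (-0.59, adjusted p = 0.00248) and KARS (-0.41), and for the mitochondrial NARS2 and IARS2 (-0.41 and -0.37). Between RCC4+VHL and HKC-8 15 members differed (15.2% of all genes). Of these, 10 cytosolic genes were lower in RCC4+VHL (7.29% of all genes) and RARS with 4 mitochondrial genes higher (7.87%). Between RCC4+VHL and HepG2 5 members differed (22.6% of all genes). That number was 3 without RCC4+VHL normoxic sample 2, hypoxic sample 2 or 3, or HepG2 hypoxic sample 1 (18.4% to 18.9% of all genes). Without HepG2 normoxic sample 2 it was 8 (22.9% of all genes). The 3 contrasts share samples, and those with RCC4+VHL carry a different oxygen level and duration if its labels hold. If the HKC-8 titles hold, the contrast of HKC-8 with HepG2 carries a different oxygen level as well.

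Among the members are 13 pairs of a cytosolic and a mitochondrial enzyme for the same amino acid. In HKC-8 the cytosolic gene had the higher log2 fold change in 10 of the 12 pairs tested, the median difference being 0.62, with WARS and WARS2 at 0.59 and -0.31 and NARS and NARS2 at 0.26 and -0.44. The exceptions were RARS with RARS2 (-0.62 and -0.18) and HARS with HARS2 (-0.36 and -0.30). The cytosolic gene was higher in 4 of 12 pairs in RCC4+VHL and in 5 of 13 in HepG2, with median differences of -0.03 and -0.20. HARS and HARS2 start 85 bases apart on opposite strands of chromosome 5 and their annotated spans share 108 bases, so their counts are uncertain where the counting did not use strand.

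Partners of the enzymes were examined from lists drawn up with earlier results of these data known. Directions within these lists are therefore not independent evidence. EEF1E1, a scaffold protein of the complex, fell in all 3 lines, by 0.43 ± 0.09, 0.30 ± 0.05 and 0.34 ± 0.07 on the log2 scale (adjusted p = 0.0121, 8.75e-06 and 0.00201). AIMP2 fell in RCC4+VHL (-0.32 ± 0.04) and AIMP1 in HepG2 (-0.44 ± 0.07). XPOT, which exports tRNA from the nucleus, rose in HKC-8 (0.31 ± 0.09, adjusted p = 0.0469) and fell in RCC4+VHL (-0.14 ± 0.03, adjusted p = 0.00118), and the difference of its response, RCC4+VHL minus HKC-8, passed the test (-0.47 ± 0.10, adjusted p = 0.00717). Of 6 cytosolic elongation factors 2 rose in RCC4+VHL and 3 in HepG2, against 0 in HKC-8 by edgeR and 0 at an unadjusted p under 0.05. Of all genes 25.9%, 19.9% and 11.2% rose by edgeR in these lines. EEF2, which moves the ribosome along, rose in RCC4+VHL and HepG2 (0.12 ± 0.03 and 0.42 ± 0.07) and EEF1A2 rose 3.13-fold in HepG2 from a low level (8.18, 6.03 and 4.25 to 22.7, 18 and 17.2 CPM, adjusted p = 1.14e-05).

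Genes that work beside the mitochondrial enzymes fell or missed the threshold. Their list was also drawn up with earlier results of these data known. Of 13 mitochondrial translation partners 0 rose in any line, and 6 fell in HKC-8, 7 in RCC4+VHL and 7 in HepG2. Of all genes 9.12%, 24.2% and 19.2% fell and 11.2%, 25.9% and 19.9% rose in these lines. The partners had medians of -0.26, -0.14 and -0.17, and the number that rose was also 0 by DESeq2 and at an unadjusted p under 0.05. QRSL1, the subunit of the amidotransferase that makes mitochondrial glutaminyl-tRNA in place of a separate synthetase, fell in each line, by 0.47 ± 0.09, 0.22 ± 0.05 and 0.38 ± 0.07 on the log2 scale (adjusted p = 0.0077, 0.000537 and 0.00112). TSFM and GFM1, elongation factors of the organelle, also fell in all 3. TUFM, which delivers charged tRNA to the mitochondrial ribosome, fell in RCC4+VHL (-0.14 ± 0.03) and was at -0.24 ± 0.11 and -0.08 ± 0.06 in HKC-8 and HepG2. In HKC-8 the number that fell was 10 with the replicate block, 1 without normoxic sample 1 and 2 without hypoxic sample 1. Of all genes 21.6%, 2.37% and 2.5% fell in these fits.

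The other genes of the amino acid response separated HKC-8 from the other lines more widely than the synthetases did. Of 31 such genes, none of them a synthetase, 30 rose and 0 fell in HKC-8 (11.2% and 9.12% of all genes), with a median of 1.17. By DESeq2 and at an unadjusted p under 0.05, 1 fell, ATF5. When any sample was left out 26 to 30 rose, while 5% to 13.1% of all genes did. In RCC4+VHL 8 rose and 12 fell of 28 tested (25.9% and 24.2% of all genes), with a median of -0.08. In HepG2 6 rose and 13 fell of 31 (19.9% and 19.2% of all genes), with a median of -0.15. ATF4 itself was at 387, 411 and 390 CPM in normoxic and 573, 533 and 593 CPM in hypoxic HKC-8 (0.52 ± 0.08, adjusted p = 0.00308), at -0.03 ± 0.03 in RCC4+VHL, and at 446, 466 and 438 and 383, 346 and 349 CPM in HepG2 (-0.33 ± 0.06, adjusted p = 0.00112). The response of ATF4 differed between HKC-8 and HepG2 by 0.84 ± 0.10 (adjusted p = 7.5e-05).

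ASNS, asparagine synthetase, was at 85.1, 103 and 244 CPM in normoxic and 466, 453 and 730 CPM in hypoxic HKC-8 (1.93 ± 0.37, adjusted p = 0.00853). Sample 3 was the highest of both groups, as for GARS, WARS and AARS, and the normoxic value there was more than that of the other normoxic samples together. In RCC4+VHL ASNS fell (-0.28 ± 0.05, adjusted p = 7.75e-05) and in HepG2 it missed the threshold (-0.18 ± 0.07, adjusted p = 0.0526). DDIT3, the stress-induced factor CHOP, rose in HKC-8 (12.2, 13.2 and 13.5 to 26.8, 16.9 and 29.6 CPM, 0.91 ± 0.19, adjusted p = 0.0112) and fell in HepG2 (13.7, 18.5 and 15 to 8.58, 7.69 and 8.02 CPM, -0.96 ± 0.12, adjusted p = 2.99e-05).

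Among the 20 response genes that rose at least 2-fold in HKC-8 were enzymes of serine synthesis (PSAT1 at 1.36, PHGDH at 1.06 and PSPH at 1.05), amino acid transporters (SLC1A4 at 1.82, SLC7A11 at 1.46 and SLC6A9 at 1.17) and the enzymes PCK2, GPT2, ALDH1L2 and CTH (1.82, 1.52, 1.28 and 1.11). The others were CHAC1, TRIB3, SESN2, ATF3, JDP2 and NUPR1 (2.09, 2.00, 1.21, 1.34, 1.09 and 1.80), with DDIT4, VLDLR and STC2 (2.43, 2.20 and 2.14), and ASNS. DDIT4 and STC2 rose at least 2-fold in RCC4+VHL too (2.72 and 1.90) with TRIB3 (1.45), and DDIT4, VLDLR and STC2 did so in HepG2 (2.08, 1.99 and 1.33), where NUPR1 fell (-1.59). The direction of this list is not independent evidence, since it was drawn up with results of these samples known. PHGDH, ALDH1L2 and SLC6A9 were too low to test in RCC4+VHL.

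**Figure D5:**
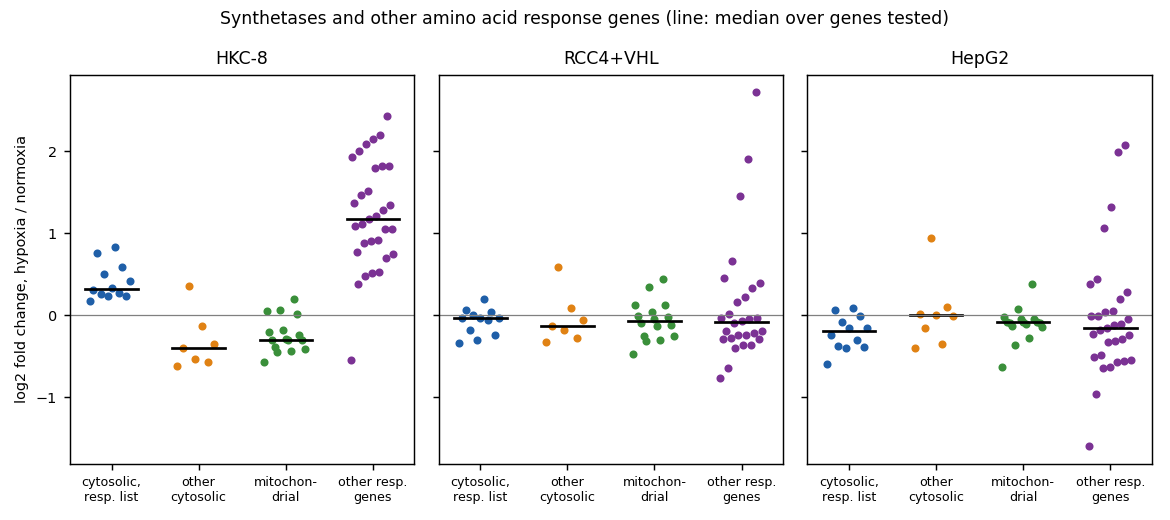
Log2 fold change of each gene by group and line, with the median as a black line. In HKC-8 the response-list synthetases and the other response genes lie above 0 with medians of 0.32 and 1.17, ATF5 being the exception, and the other cytosolic and mitochondrial synthetases have medians of -0.39 and -0.29, whereas in RCC4+VHL and HepG2 the 4 medians lie between -0.20 and 0.00.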

How the data were processed

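Polyadenylated RNA libraries (ScriptSeq v2) of 18 samples were analysed. Per the labels and the study's methods, the authors trimmed reads with Trim Galore 0.3.3, aligned them to GRCh37 with TopHat 2.0.8b and Bowtie 1.0.0, removed fragments that did not map uniquely with SAMtools 0.1.19, and deposited raw counts per UCSC gene from HTSeq 0.5.4p3 in intersection-strict mode. The strand setting is not given in the sources used here.

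From these counts, genes were kept by filterByExpr, scaled by TMM and tested within each line with edgeR 4.0.16 (glmQLFit and glmQLFTest, R 4.3.3), with Benjamini-Hochberg adjustment over all genes tested. Interactions used 12 samples of a pair of lines and normoxic levels the 9 normoxic samples. RPKM used TMM over all 18 samples and the exonic length of the canonical GENCODE transcript on GRCh37. The standard error is the size of the log2 fold change divided by the square root of F. Alternatives were DESeq2 1.42.0, its size factors, other count filters, 1 fit of 18 samples, a block for the replicate number, and fits that leave out 1 sample. The scripts were tested on simulated data.

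The members and gene lists were chosen with earlier results of these data known. Values per sample are given for the 5 cytosolic and 3 mitochondrial genes of largest change among those called in each line, for members called in opposite directions, and for those whose response differed by at least 0.5 between HKC-8 and HepG2. List genes are named at an adjusted p under 0.05 and a 2-fold change, plus a few named in any case. TSFM, GFM1, EEF2, CSNK2B and CLIC1 were named after their values were seen.

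The labels number the replicates of each group from 1 to 3. The correlation of same-numbered samples' deviations was 0.109, 0.453 and 0.447 in HKC-8, -0.0103, 0.0333 and 0.0147 in RCC4+VHL and 0.165, 0.0617 and 0.184 in HepG2. Normoxic sample 1 of HKC-8 correlated slightly more with hypoxic sample 2 (0.116). The labels do not say that the numbers pair samples. The main tests were therefore unpaired in every line, and the block for the replicate number was an alternative only.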

Additional observations from a re-analysis of the deposited data

Results flagged for a closer look

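The response to hypoxia differed between lines for the members below, by the edgeR test of the interaction. Between HKC-8 and HepG2 the log2 fold change in HKC-8 minus that in HepG2 was 0.914 for CARS, 0.895 for AARS, 0.885 for WARS, 0.832 for YARS, 0.784 for SARS, 0.744 for GARS, 0.719 for MARS, 0.497 for NARS and 0.455 for IARS. It was negative for RARS (-0.614), DARS (-0.587), KARS (-0.408), NARS2 (-0.406) and IARS2 (-0.372).

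Between RCC4+VHL and HKC-8, the log2 fold change in RCC4+VHL minus that in HKC-8 was -0.846 for GARS, -0.835 for CARS, -0.794 for WARS, -0.752 for AARS, -0.689 for MARS, -0.559 for YARS, -0.472 for SARS, -0.318 for NARS, -0.288 for IARS and -0.286 for TARS. It was positive for RARS (0.422), WARS2 (0.414), NARS2 (0.401), HARS2 (0.325) and IARS2 (0.316). Between RCC4+VHL and HepG2 it was -0.362 for DARS, 0.325 for SARS, -0.307 for SARS2, 0.286 for YARS and 0.26 for TARS2. HKC-8 enters the 2 longer lists, so they are not independent of each other.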

How the results depend on the processing

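No call of a member in the comparisons of hypoxia with normoxia changed direction under any of 12 alternatives per line, and 5 of 18 calls in HKC-8, 10 of 20 in RCC4+VHL and 11 of 13 in HepG2 passed the threshold under all of them. In HKC-8 the cytosolic genes that rose were 7, and 11 by DESeq2, 12 in 1 fit of all 18 samples and 12 with the replicate block. Those that fell were 3, and 5 by DESeq2, without a low-count filter, in the 18-sample fit and with the block. With the block 1 mitochondrial gene rose, against 0, and VARS2 changed sign (-0.0147). In RCC4+VHL the 18-sample fit gave 1 cytosolic gene that rose and 4 that fell, and 1 mitochondrial gene that rose. The shares of all genes moved in the same fits: in HKC-8 26% were called by DESeq2, 32.7% in the 18-sample fit and 42.5% with the block, against 20.4%, and in RCC4+VHL 21.5% in the 18-sample fit, against 50.1%. The cause was not tested. Responses that differed between HKC-8 and HepG2 were 22 with the block, and those between RCC4+VHL and HepG2 8 by DESeq2, 8 with at least 10 counts in every sample and 1 in the 18-sample fit. Of all genes 20.1%, 25.4%, 30.4% and 12.3% differed in these fits, in that order.

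In RCC4+VHL and HepG2 the replicate block changed the call of IARS in HepG2 alone (adjusted p = 0.0441). Every sample correlated best with its own number in HepG2, but not in RCC4+VHL and not for normoxic sample 1 of HKC-8. Between RCC4+VHL and HKC-8 21 responses differed with the block (28.7% of all genes, against 15.2% without it). Leaving GARS and KARS out of the cytosolic class left 6 that rose and 2 that fell in HKC-8.

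Leaving out 1 sample at a time gave 2 to 7 cytosolic genes that rose and 2 to 5 that fell in HKC-8, and 0 and 1 to 8 mitochondrial ones. The ranges were 2 to 4, 8, 1 to 3 and 5 to 6 in RCC4+VHL and 1, 7 to 9, 1 and 2 to 3 in HepG2. Of all genes 5% to 13.1% rose and 2.37% to 10.9% fell in HKC-8 in these fits. The shares were 22.4% to 23.9% and 20.8% to 22.4% in RCC4+VHL, and 16% to 21.3% and 13.7% to 21.1% in HepG2. Responses that differed numbered 11 to 20 between HKC-8 and HepG2, 12 to 19 between RCC4+VHL and HKC-8 and 3 to 8 between RCC4+VHL and HepG2. Of all genes 5.87% to 12.6%, 10.3% to 20.6% and 18.4% to 24.7% differed in these fits.

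The following values changed sign when a sample was left out, and none of them was called. In HKC-8 log2 fold changes ran from -0.0298 to 0.0459 for IARS2, -0.0153 to 0.147 for PARS2 and -0.354 to 0.357 for VARS2. In RCC4+VHL they ran from -0.0139 to 0.0348 for GARS, -0.0571 to 0.0115 for NARS2, -0.0367 to 0.0125 for PARS2, -0.196 to 0.783 for VARS2 and -0.117 to 0.0141 for DDIT3. In HepG2 they ran from -0.0212 to 0.0363 for HARS, -0.0086 to 0.0307 for KARS, -0.055 to 0.0595 for LARS, -0.0608 to 0.047 for RARS, -0.0838 to 0.00835 for NARS2, -0.103 to 0.027 for RARS2 and -0.0442 to 0.011 for SARS2.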
